A study of Homo sapiens with 4 samples.

Results

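Urea cycle and ammonia-handling genes were compared between CD133+ and CD133- cells of Huh7, an established human hepatocellular carcinoma line. Both populations came from the same line and were separated by flow cytometry for CD133, the surface protein encoded by PROM1, and no further treatment is given in the labels. The set held 9 genes of 19775 with a probe set of their own: CPS1, OTC, ASS1, ASL, ARG1, ARG2, NAGS, GLUL and GLUD1. The 9 genes were chosen by earlier results of the same arrays, in which the CPS1 and ARG1 differences had been seen, so all differences below are descriptions. They were measured by every probe set whose platform annotation names only that gene, 18 of 54675 probe sets. Each population was measured on 1 array, summarized by the authors once as RMA values on a log2 scale and once as MAS5 signals on a linear scale. There is therefore no replicate error, no test and no p-value. The labels give neither the purity nor the number of the sorts.

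The urea cycle turns ammonia, which is toxic to the brain, into urea for excretion, and in the body it runs mainly in hepatocytes near the portal vein. NAGS, CPS1 and OTC act in the mitochondrion, where NAGS makes the obligatory activator of CPS1, CPS1 joins ammonia and bicarbonate to carbamoyl phosphate, and OTC transfers this group to ornithine to give citrulline. ASS1, ASL and ARG1 complete the cycle in the cytosol. GLUL, which fixes ammonia in glutamine, is typical of the hepatocytes around the central vein.

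Members of the cycle differed between the populations in opposite directions. CPS1 was 5.04-fold higher in CD133+ cells, while OTC, ARG1 and NAGS were 1.83-fold, 1.75-fold and 1.73-fold lower. ASS1, ASL, GLUL and GLUD1 differed by 1.25-fold or less, all lower in CD133+ cells, and ARG2 was 1.39-fold higher. Both arrays carried RNA of hepatocyte character, since all 9 hepatocyte and hepatoma markers were bright: the albumin gene ALB, for example, had RMA values of 13.57 in CD133+ cells and 13.63 in CD133- cells. In RNA from a population, fewer cells expressing a gene and less RNA per cell cannot be told apart.

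The promoter windows of the 4 genes with the largest differences are shown, because the members that were lower together can then be set beside CPS1. Each window holds the 250 bases before an annotated start, read on the gene's strand, from RefSeq on GRCh38.p14. All 9 members matched the RefSeq table, with 13 windows in all and 3 for CPS1. Capitals mark matches, on either strand, to the TATA box word TATAAA, the CCAAT box, the SP1 family word GGGCGG, the core TTGCNNAA of C/EBP sites and the word CAAAGTCC of HNF4 sites, and no matches overlap in these windows. The words were picked with the windows in view.
CPS1, chr2:210477435-210477684, plus strand: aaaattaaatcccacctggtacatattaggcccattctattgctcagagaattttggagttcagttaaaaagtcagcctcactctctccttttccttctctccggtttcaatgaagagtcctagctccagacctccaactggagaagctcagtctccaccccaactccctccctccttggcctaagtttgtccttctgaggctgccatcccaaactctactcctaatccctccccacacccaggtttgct
CPS1, chr2:210519468-210519717, plus strand: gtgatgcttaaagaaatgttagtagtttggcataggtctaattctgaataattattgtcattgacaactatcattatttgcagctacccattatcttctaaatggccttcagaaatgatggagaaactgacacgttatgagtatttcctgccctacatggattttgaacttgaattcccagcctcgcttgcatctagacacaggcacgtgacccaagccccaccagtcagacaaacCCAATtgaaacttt
CPS1, chr2:210593105-210593354, plus strand: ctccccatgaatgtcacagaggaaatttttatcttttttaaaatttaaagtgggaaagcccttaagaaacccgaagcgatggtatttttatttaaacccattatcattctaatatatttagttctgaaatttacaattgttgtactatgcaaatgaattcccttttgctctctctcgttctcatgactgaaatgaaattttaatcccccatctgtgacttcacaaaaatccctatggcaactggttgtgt
OTC, chrX:38352354-38352603, plus strand: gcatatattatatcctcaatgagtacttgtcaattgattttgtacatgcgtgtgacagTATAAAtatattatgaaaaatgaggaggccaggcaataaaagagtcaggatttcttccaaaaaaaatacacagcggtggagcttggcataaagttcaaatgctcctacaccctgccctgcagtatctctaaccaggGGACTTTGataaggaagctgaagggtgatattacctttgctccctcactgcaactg
ARG1, chr6:131572976-131573225, plus strand: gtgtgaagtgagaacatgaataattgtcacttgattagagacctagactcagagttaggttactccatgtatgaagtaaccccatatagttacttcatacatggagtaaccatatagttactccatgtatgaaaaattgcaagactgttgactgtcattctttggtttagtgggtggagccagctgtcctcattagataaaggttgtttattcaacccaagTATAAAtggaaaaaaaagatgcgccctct
NAGS, chr17:44004372-44004621, plus strand: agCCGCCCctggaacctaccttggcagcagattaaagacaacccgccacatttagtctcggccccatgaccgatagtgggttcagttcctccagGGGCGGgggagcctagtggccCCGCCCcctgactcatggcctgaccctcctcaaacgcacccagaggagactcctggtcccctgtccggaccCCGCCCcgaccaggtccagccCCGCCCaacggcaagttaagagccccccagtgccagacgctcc

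The windows of CPS1, OTC and ARG1 were poor in G and C, at 33.6% to 48.4%, with 1 to 3 CpG pairs each. That of NAGS had 65.6% and 13 CpG pairs, and the windows of ASS1, ASL, ARG2, GLUL and GLUD1 had 68.4% to 80.4% and 21 to 41. Over all 35116 RefSeq windows of this length the median was 58.0% with 11 CpG pairs. The ARG1 window holds a TATA word that begins 29 bases before the start, and the OTC window holds a TATA word 192 bases and an HNF4 word 56 bases before it. TATAAA occurs in 10.7% of all windows and CAAAGTCC in 1.02%. The NAGS window holds 5 matches to GGGCGG, a word found in 42.6% of windows. Of the 3 CPS1 windows, 1 holds a CCAAT word, present in 32.0% of windows, and the other two hold none of the words searched. TTGCNNAA, found in 9.05% of windows, has no match in any member's window. Which CPS1 start Huh7 cells use was not examined here.

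**Figure D1:**
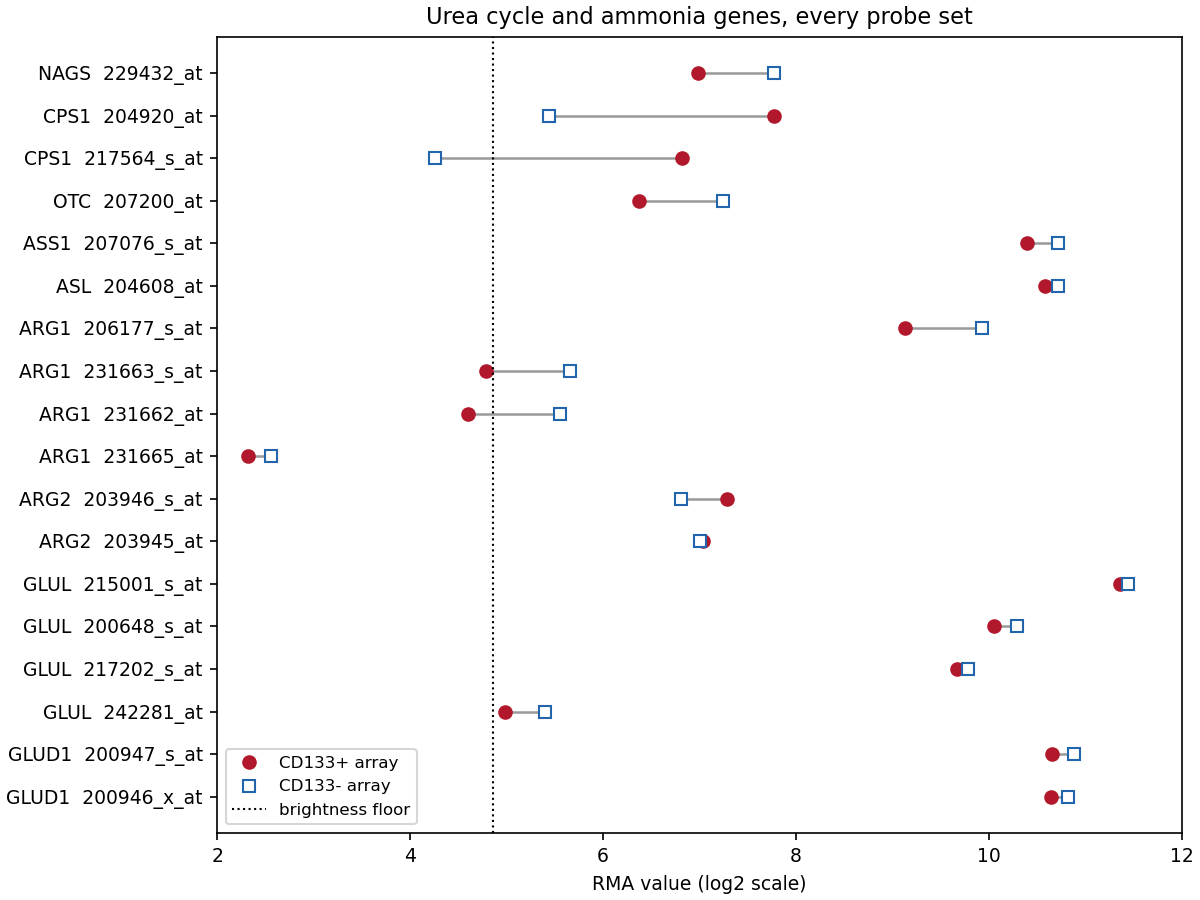
RMA values (log2 scale, horizontal axis) of all 18 probe sets of the 9 genes, with CD133+ cells as filled circles, CD133- cells as open squares and the brightness floor of 4.86 as a dotted line. Both CPS1 probe sets lie to the right in CD133+ cells, and those of NAGS, OTC and ARG1 to the left.

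CPS1, the first and rate-setting enzyme of the cycle, was higher in CD133+ cells on both of its probe sets. Probe set 204920_at had RMA values of 7.77 in CD133+ cells and 5.44 in CD133- cells, and MAS5 signals of 1064 and 219.8 (CD133+ and CD133- cells). The RMA difference, always CD133+ minus CD133-, was 2.33 on the log2 scale, and the MAS5 difference was 2.28. Probe set 217564_s_at had RMA values of 6.82 in CD133+ cells and 4.25 in CD133- cells, a difference of 2.56. Its CD133- value lay below the brightness floor of 4.86, the median over all probe sets of the brighter RMA value, so the difference is stated as at least 3.89-fold. Because of that bound, how closely the CPS1 probe sets match in size by RMA cannot be stated. By MAS5 217564_s_at had signals of 702 in CD133+ cells and 124 in CD133- cells. Both lay above the MAS5 floor of 91.8, set in the same way. Its MAS5 difference was 2.50, against 2.28 for 204920_at. Over 16955 pairs of probe sets of the same gene above the RMA floor, their RMA differences had an SD of 0.24. That SD compares probes on the same arrays and holds nothing of the spread between sorts or cultures. Among the 12899 genes whose brighter value lay above the floor, called detected here, the CPS1 difference ranked 25th from the top, with 0.186% of detected genes higher.

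The genes whose RMA difference lay nearest to that of CPS1 were AGR2 (2.46), PRSS23 (2.44) and TMEM45B (2.40) above it and TFPI2 (2.32), C19orf33 (2.30) and LRRC66 (2.29) below it, by the values as measured. The CD133- value of LRRC66 lay below the floor, so LRRC66 was at least 3.04-fold higher and its place in this order is uncertain, and its MAS5 difference was 3.09. With 1 array per population this likeness rests on a single difference. For comparison, PROM1 itself had RMA values of 10.49 in CD133+ cells and 5.33 in CD133- cells, a difference of 5.16.

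The other mitochondrial enzymes of the cycle were lower in CD133+ cells. OTC, the enzyme that consumes the product of CPS1, had RMA values of 6.37 in CD133+ cells and 7.24 in CD133- cells, a difference of -0.87. Its MAS5 signals were 327 in CD133+ cells and 698 in CD133- cells, a 2.13-fold difference, so OTC reached 2-fold by MAS5 and not by RMA. NAGS, the synthase of N-acetylglutamate, had RMA values of 6.98 in CD133+ cells and 7.77 in CD133- cells, a difference of -0.79. Its MAS5 signals were 467 in CD133+ cells and 751 in CD133- cells. Only 0.225% of detected genes had a lower difference than OTC and 0.349% a lower one than NAGS. Each of these genes had a single probe set, so no second measurement on the array stands behind them. The differences of CPS1 and OTC, whose reactions follow each other, were 3.20 apart on the log2 scale.

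The cytosolic enzymes split between the arginase step and the steps before it. ARG1, the hepatic arginase that releases urea, had RMA values of 9.12 in CD133+ cells and 9.93 in CD133- cells on its brightest probe set, a difference of -0.80, with MAS5 signals of 3567 and 6201 (CD133+ and CD133- cells). Of its other probe sets, 231663_s_at had values of 4.79 in CD133+ cells and 5.65 in CD133- cells, and 231662_at had 4.60 in CD133+ cells and 5.55 in CD133- cells. These CD133+ values lay below the floor, so ARG1 was at least 1.74-fold and at least 1.61-fold lower by these sets, which were designed from the same source sequence. By MAS5 both sets lay above the MAS5 floor in both populations. There 231663_s_at was 2.73-fold and 231662_at 2.21-fold lower in CD133+ cells, against 1.74-fold on the brightest set. The fourth, 231665_at, was below the floor in both populations and gives no direction. The 3 ARG1 probe sets above the floor in at least 1 population were thus lower in CD133+ cells.

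ASS1, which joins citrulline and aspartate, had RMA values of 10.39 in CD133+ cells and 10.71 in CD133- cells, a difference of -0.32. ASL, which splits argininosuccinate into arginine and fumarate, had 10.59 in CD133+ cells and 10.71 in CD133- cells, a difference of -0.13. Lower differences than that of ASS1 were found in 5.66% of detected genes, and lower ones than that of ASL in 25.2%, so ASL lay within the bulk of the array. The single ASS1 probe set is of the kind that can match several transcripts.

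ARG2, the mitochondrial arginase of non-hepatic tissues, did not share the direction of ARG1. Probe set 203946_s_at had RMA values of 7.29 in CD133+ cells and 6.81 in CD133- cells, a difference of 0.48, and 203945_at had 7.04 in CD133+ cells and 7.00 in CD133- cells, a difference of 0.03. By MAS5 the same sets differed by 0.40 and 0.30. The ARG2 probe sets thus disagreed on the RMA scale by more than the SD of 0.24 between probe sets of a gene, and the size of its difference is uncertain. On the brightest probe sets the ARG2 and ARG1 differences were 1.28 apart.

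Ammonia handling outside the cycle differed little. GLUL, glutamine synthetase, had RMA values of 11.36 in CD133+ cells and 11.44 in CD133- cells on its brightest probe set. Its 4 probe sets differed by -0.08 to -0.41, the last on the dim set 242281_at, with 4.99 in CD133+ cells and 5.40 in CD133- cells. GLUD1, the mitochondrial glutamate dehydrogenase that releases or takes up ammonia, had 10.65 in CD133+ cells and 10.88 in CD133- cells, and its probe sets differed by -0.23 and -0.17. GLUD2 is a near-identical copy of GLUD1 without a probe set of its own here, and both GLUD1 sets are of the kind that can match several transcripts, so their signal may include GLUD2.

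**Figure D2:**
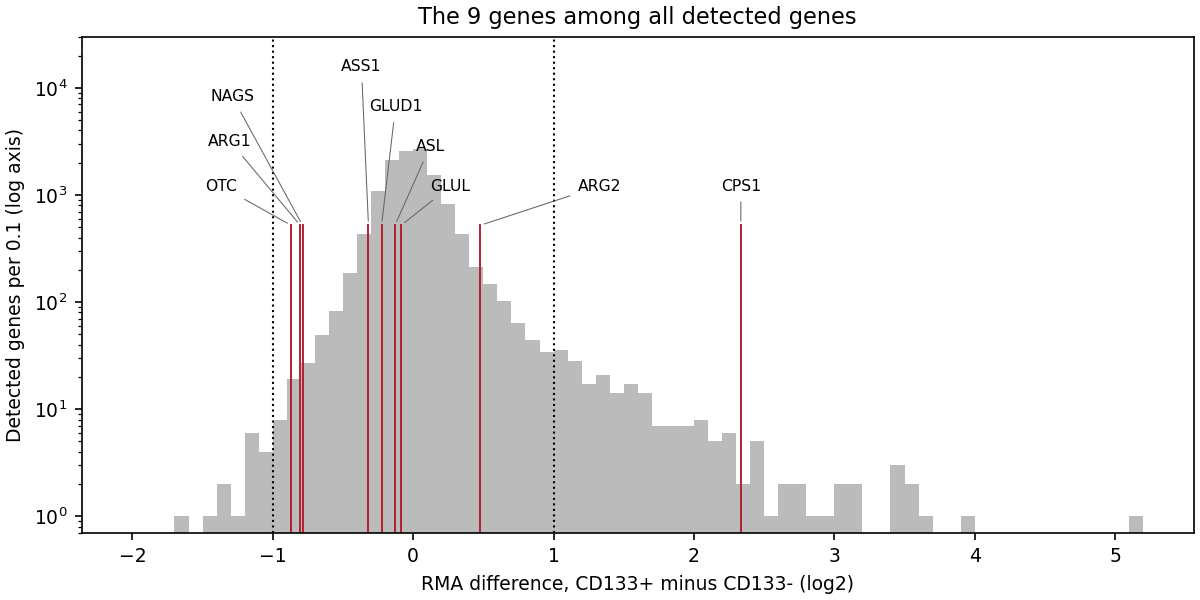
Number of detected genes per 0.1 of RMA difference (log2, CD133+ minus CD133-) on a log axis, with the 9 genes as red lines and 2-fold as dotted lines. CPS1 lies at 2.33 in the sparse upper tail, OTC, ARG1 and NAGS between -0.87 and -0.79 in the lower tail, and the other 5 between -0.32 and 0.48.

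All 9 genes were detected. At least 2-fold, 1 of 9 was higher in CD133+ cells, where 1.65% of detected genes were, and 0 of 9 were lower, where 0.116% were. At least 1.5-fold, 1 of 9 was higher against 3.67% of detected genes, and 3 of 9 were lower against 1.01%. By MAS5, 1 of 9 was at least 2-fold higher and 1 of 9, OTC, at least 2-fold lower, where 4.47% and 1.71% of genes above the MAS5 floor of 91.8 were higher and lower. The median RMA difference of the 9 genes was -0.23, against -0.01 over all detected genes, and -0.27 when CPS1 was left out. Since the genes were chosen with these values known, the counts describe the set and do not test it.

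**Figure D3:**
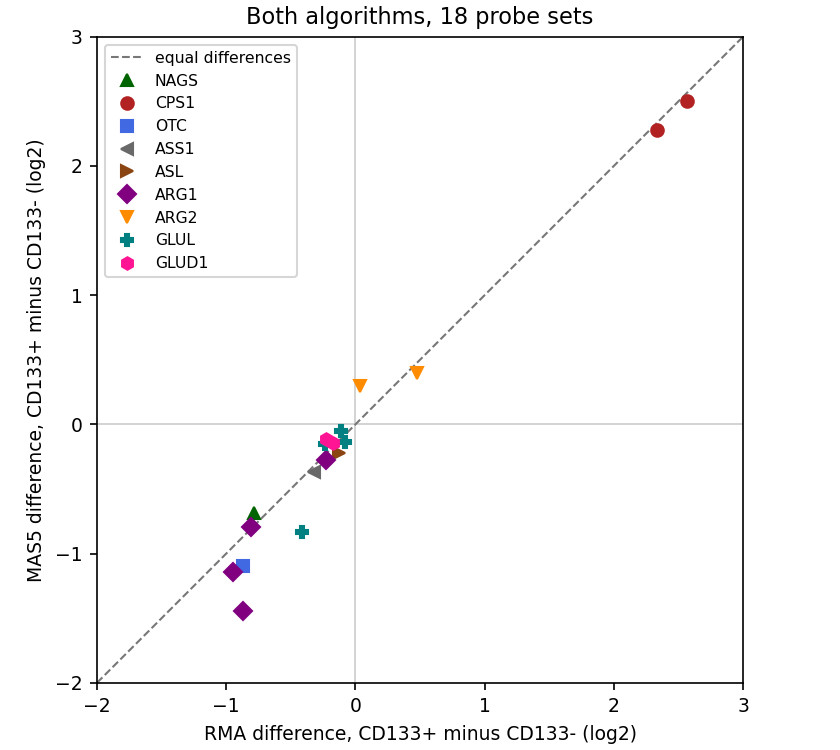
RMA difference (horizontal axis) against MAS5 difference (vertical axis), both log2 CD133+ minus CD133-, for the 18 probe sets, with the dashed line marking equal differences. All 18 have the same sign on both scales. The brightest ARG1 probe set, 206177_s_at, lies at -0.80 on both, and the dimmer ARG1 sets lie lower by MAS5 than by RMA.

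The algorithms gave all 18 probe sets the same sign, 4 of them higher in CD133+ cells and 14 lower, including the ARG1 set 231665_at that lay below both floors. Both summarize the same arrays, so this is not an independent measurement. Over probe sets above both floors in both populations the algorithms differed by at most 0.42, on the dim GLUL set 242281_at.

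Carriers that feed or drain the cycle were mostly level, with SLC7A7 the exception. Of 9 detected genes among 11 in this list, 1 was at least 2-fold higher and 0 were lower, against 1.65% and 0.116% of all detected genes. The median difference was -0.06. SLC7A7, the y+L transporter subunit that exports cationic amino acids such as arginine and ornithine, had RMA values of 9.10 in CD133+ cells and 5.67 in CD133- cells. SLC25A15, the mitochondrial ornithine carrier, differed by -0.15 and SLC25A13, the aspartate-glutamate carrier citrin, by 0.08. SLC7A2, a cationic amino acid importer of liver, differed by -0.28. CA5A, the mitochondrial carbonic anhydrase that supplies bicarbonate to CPS1, had 6.45 in CD133+ cells and 7.00 in CD133- cells, the lowest difference of the list at -0.55. By MAS5 the CA5A signals were 212 in CD133+ cells and 447 in CD133- cells, a 2.11-fold difference.

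Branches that draw on ornithine, arginine and citrulline held no gene at 2-fold. Over all detected genes only 1.65% were at least 2-fold higher and 0.116% lower, so a count of 0 does not set these lists apart. All 13 genes of the ornithine, proline, creatine and polyamine list were detected, with a median of 0.10. They ran from GAMT at -0.33 to GATM at 0.55, the enzymes of the last and first step of creatine synthesis, of which GATM uses arginine. The ornithine aminotransferase OAT differed by 0.17. In the nitric oxide list 5 of 6 genes were detected, from DDAH1 at -0.47 to DDAH2 at 0.16, both hydrolases of methylated arginines, with a median of -0.04.

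Of 18 listed genes of glutamine and glutamate metabolism, 13 were detected. At 2-fold were 0 of the 13, where 1.65% of all detected genes were higher and 0.116% lower. By RMA 12 of the 13 were lower by any amount and 1 was higher, with a median of -0.11. Over all detected genes 51.1% were lower and 45.6% higher by any amount. The lowest was SLC38A3, a glutamine transporter of liver and other tissues, with RMA values of 6.79 in CD133+ cells and 7.29 in CD133- cells. The highest was the alanine aminotransferase gene GPT at 0.16, and the aspartate aminotransferase GOT1 differed by -0.33. By MAS5 the median of this list was -0.16, but SLC7A5 turned higher at 0.68, against -0.17 by RMA. SLC1A5 and SLC1A4 also turned higher, at 0.05 each. Ammonia-releasing and ammonia-transporting genes had 9 detected members among 14 and a median of -0.03. AMPD3, an AMP deaminase, was highest with 5.59 in CD133+ cells and 4.80, below the floor, in CD133- cells, or at least 1.67-fold. HAL, the histidine ammonia-lyase, was lowest at -0.34. The ammonia transporter gene RHBG differed by 0.35 by RMA and by 1.40 by MAS5, so its size depended on the algorithm.

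The cytosolic route to carbamoyl phosphate, used for pyrimidines, was not higher alongside CPS1. CAD, whose first domain carries out the corresponding reaction, had RMA values of 7.60 in CD133+ cells and 7.84 in CD133- cells, a difference of -0.24, and its MAS5 difference was -0.01. All 7 genes of this list were detected, with a median of -0.17, and UPP1, a uridine phosphorylase, was highest at 0.36. Links through aspartate and fumarate ranged from ADSL at -0.19 to MDH1 at 0.10 over 5 detected genes of 8.

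Transcription factors and deacetylases known to act on urea cycle genes or enzymes differed little. Of 12 detected genes among 14, 0 reached 1.5-fold, where 3.67% of all detected genes were higher and 1.01% lower. The median was -0.10. KLF15, a glucocorticoid- and fasting-responsive factor of amino acid breakdown, was lowest with 7.08 in CD133+ cells and 7.57 in CD133- cells, although its probe sets above the floor ranged from -0.49 to 0.04. FOXA1 was highest at 0.32, and CEBPA, which is needed for CPS1 expression in mouse liver, differed by -0.09.

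Markers of the zones of the liver lobule showed no common direction by RMA. Of 5 detected periportal genes among 10, PCK1, which commits carbon to gluconeogenesis, was higher by a factor of at least 1.42, with RMA values of 5.36 in CD133+ cells and 4.19 in CD133- cells, and HAL was lowest. By RMA 2 of the 5 were higher and 2 lower, CDH1 being higher at 0.42. The RMA median was 0.00, the value of TAT. By MAS5 the median was 0.31, again that of TAT. PCK1 differed by 0.94, CDH1 by 0.38 and FBP1 by 0.12 by MAS5, and HAL was lower at -0.28. Of 12 detected pericentral genes and Wnt outputs among 14, 0 were at 2-fold, where 1.65% of all detected genes were higher and 0.116% lower. Their median was -0.03. LGR5, a Wnt target, was lowest, with 4.53, below the floor, in CD133+ cells and 5.27 in CD133- cells, and RHBG highest.

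**Figure D4:**
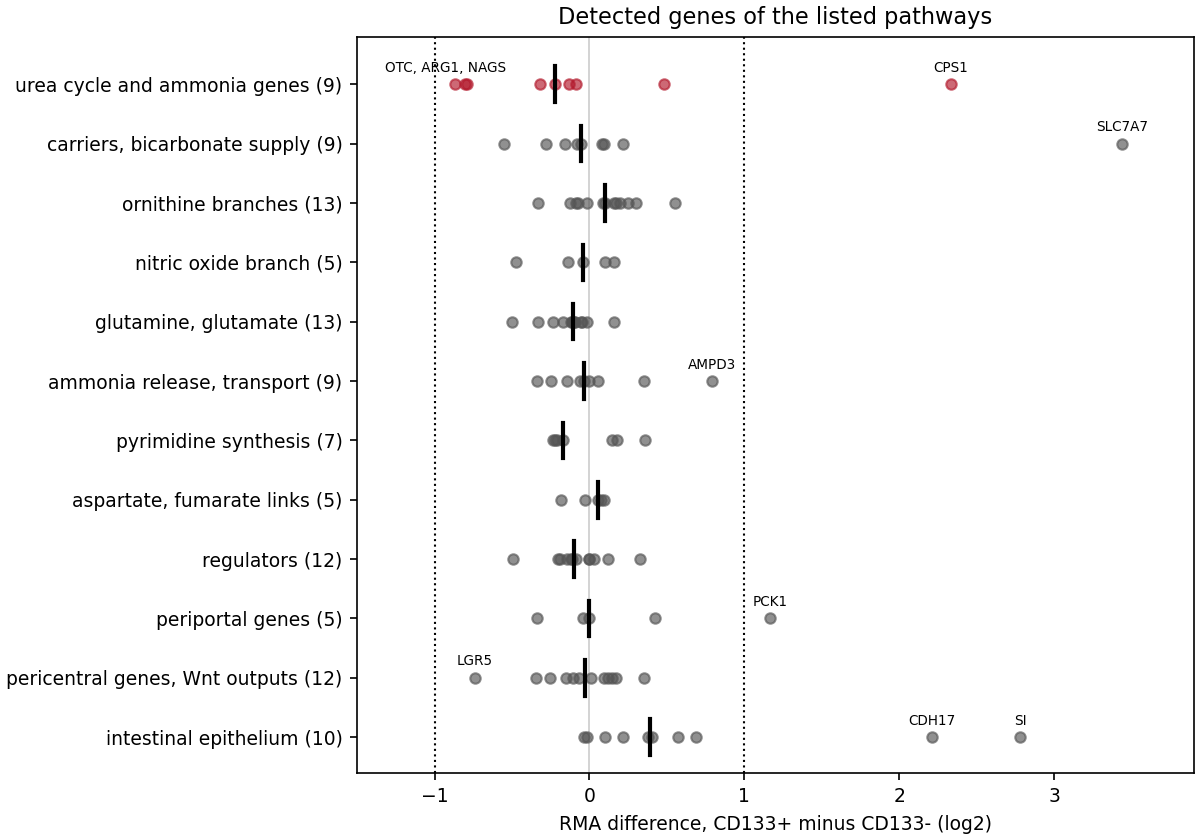
RMA differences (log2, CD133+ minus CD133-) of the detected genes of the urea cycle set (red) and of 11 related lists (grey), with the number detected in brackets, list medians as black bars and 2-fold as dotted lines. CPS1, SLC7A7, PCK1, CDH17 and SI lie beyond 2-fold as measured, although PCK1, below the floor in CD133- cells, is bounded at 1.42-fold, and OTC, ARG1 and NAGS lie lowest of all genes shown.

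CPS1 is also made in the small intestine, and genes of intestinal epithelium were measured beside it. Of 10 detected genes among 12, 2 were at least 2-fold higher, against 1.65% of all detected genes. By RMA 8 were higher by any amount, against 45.6% of all detected genes, with a median of 0.39. By MAS5 the median was 0.27. LGALS4 differed by 0.22 by RMA and by -0.77 by MAS5. SLC5A1, below the MAS5 floor, differed by 0.10 by RMA and by -0.43 by MAS5, and FABP1 by -0.01 and 0.02. SI, the disaccharidase sucrase-isomaltase, had RMA values of 9.19 in CD133+ cells and 6.41 in CD133- cells. CDH17, the liver-intestine cadherin, had 10.57 in CD133+ cells and 8.36 in CD133- cells. CDX2, a homeobox factor of intestine, had 7.75 in CD133+ cells and 7.06 in CD133- cells, and the related CDX1 was lowest at -0.04, with MAS5 signals below the floor. The summed MAS5 signal of the 12 genes was 66211 in CD133+ cells and 54411 in CD133- cells. FABP2 and KRT20, markers of mature enterocytes and colonocytes, were below the floor in both populations.

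Markers of other cells showed the following. The bile duct keratin gene KRT19 had RMA values of 10.54 in CD133+ cells and 8.52 in CD133- cells. It was 1 of 4 detected bile duct markers at 2-fold, where 1.65% of all detected genes were higher. The list's summed MAS5 signal was 13140 in CD133+ cells and 7730 in CD133- cells, of which KRT19 alone gave 7772 and 1786. The other bile duct markers were near level by RMA, with KRT7 at 0.08, SOX9 at -0.04 and SPP1 at -0.18. Of 6 stromal markers, 3 were detected and 2 were at least 2-fold higher, against 1.65% of all detected genes. LUM was higher by at least 2.33-fold and COL1A2 by 2.51-fold. The summed stromal signals were 2756 in CD133+ cells and 1345 in CD133- cells. Of the blood and endothelial markers with probe sets, 3 of 4 and 2 of 3 were detected and none differed by 1.5-fold. Over all detected genes 3.67% were at least 1.5-fold higher and 1.01% lower. The summed blood signals were 368 in CD133+ cells and 406 in CD133- cells. Those of endothelium were 290.1 in CD133+ cells and 294.9 in CD133- cells. The stromal markers DCN, COL3A1 and ACTA2, the endothelial marker CDH5 and the pan-leukocyte marker PTPRC were below the floor in both populations. The part of these cell type markers in the CPS1 difference was not tested.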

How the data were processed

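Per the labels, the authors deposited 4 columns, an RMA and a MAS5 summary of 1 array per sorted population, and the algorithms were never treated as replicates. The deposited MAS5 columns hold signal intensity on a linear scale, with a mean of 500.1 on each array after trimming 2% at both ends, so they carry a global scaling. The submitters' processing notes list MAS5 and GCOS with no version. Per the labels, the other deposited columns are RMA values on a log2 scale, with no software named. RMA equalizes the distributions of arrays, so a global shift cannot be seen.

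The platform annotation gave 41097 of 54675 probe sets exactly 1 symbol, 1801 several and 11777 none. Symbols were updated or kept through the gene number for 41043. The probe set of highest mean RMA value stood for each of 19775 genes. Genes were detected when the brighter RMA value exceeded 4.86. Differences are CD133+ minus CD133-. Counts of higher or lower genes are at 2-fold unless another limit or "by any amount" is written, and rest on the values as measured. A value below the floor gives a bound against the floor. Levels are not compared between genes, because probe sets differ in brightness. Members and lists were chosen with earlier results of these data known. Named were all 9 members, PROM1, the 2-fold genes and extremes of each list, and the 3 genes nearest to CPS1 on either side. Other genes were named for their role. Python 3.11.15, pandas 2.3.3 and NumPy 2.4.6 were used. Precision is limited by having 1 array per population.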

Additional observations from a re-analysis of the deposited data

How the results depend on the processing

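With 1 array per population none of the results has a replicate check, and leaving out a replicate was not possible. The median difference of the members was -0.23 by RMA, -0.22 by MAS5, -0.21 with the mean over probe sets, -0.22 after centring on the median of detected genes, and -0.23 with no floor and with a floor at the 75th percentile. It was -0.41 over the 7 members left without probe sets that end in _s_at or _x_at, where ASS1 and GLUD1 have none. The count of members at least 2-fold higher was 1 in every setting listed in this paragraph. The count lower was 0, except for 1 by MAS5 (OTC) and 3 at 1.5-fold (OTC, ARG1 and NAGS). Over the 11 related lists, without the cell type markers, 96 genes were detected. By RMA as measured 4 of the 96 were at least 2-fold higher and 0 lower, against 1.65% and 0.116% of all detected genes. PCK1 was among the 4, with a bound of only 1.42-fold. The count higher was 5 by MAS5, 2 without probe sets that end in _s_at or _x_at, 3 with the floor at the 75th percentile, 6 at 1.5-fold and 4 in the other settings. The 5 by MAS5, among 87 genes, were SLC7A7, SI, CDH17, RHBG and CYP2E1, where 4.47% of all genes above the MAS5 floor were higher. PCK1, at 0.94, was not among them. CYP2E1 was below the RMA floor, and its CD133- signal lay under the MAS5 floor, which bounds it at 1.02-fold. The count lower was 2 by MAS5 and 1 at 1.5-fold. By MAS5 these were CA5A and CYP3A4, but the CD133+ signal of CYP3A4 lay under the MAS5 floor, which bounds it at 1.59-fold, and its RMA difference was 0.01. At 1.5-fold it was LGR5, whose CD133+ value lay under the floor, with a bound of 1.33-fold. All members with a value had the same sign under each alternative. Without the shared probe sets ARG2 differed by 0.03 and GLUL by -0.41, and each rests there on another probe set. By MAS5 the nitric oxide list had a median of 0.17 and the pericentral list one of 0.02, opposite in sign to RMA. The aspartate and fumarate list also changed sign, from 0.05 by RMA to -0.0007 by MAS5. The periportal median was 0.00 by RMA and 0.31 by MAS5. The median of the 2 detected endothelial markers was 0.12 by RMA and -0.58 by MAS5, with VWF below the MAS5 floor. For CAD the mean over its 2 probe sets was 0.03, against -0.24 on its brightest one, but the other probe set lay below the floor.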
